A study of Mus musculus with 17 samples.

Results

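The genes of the mitochondrial respiratory chain, complexes I to V, were followed in mouse tibialis anterior, a fast muscle of the shin. Members were taken by symbol: every gene with a probe whose symbol begins with Nduf, Uqcr, Cox4i, Cox5, Cox6, Cox7, Cox8 or Atp5, plus Cyc1 and the genes Sdha to Sdhd. The rule found 86 genes among the 16593 genes with a named probe on the bead array. Placed by symbol alone, complex I had 40 members, complex II 3, complex III 9, complex IV 18 and complex V 16. Ndufa4 is thus counted in complex I by its name, and its place in the chain was not checked. By role, 79 encode subunits, 5 are assembly factors of complex I (the Ndufaf genes), Cox7a2l is a factor that joins complexes into supercomplexes, and Ndufs5-ps is annotated as a pseudogene. A further 12 protein-coding genes of the rule, Sdha among them, had no listed probe and were not analysed here. Subunits encoded by the mitochondrial genome do not fall under the rule.

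Complexes I and II take electrons from NADH and succinate and pass them to ubiquinone, complex III passes them on to cytochrome c, and complex IV hands them to oxygen. Complexes I, III and IV pump protons across the inner membrane, and complex V, the ATP synthase, uses the proton gradient to make ATP. Muscle adjusts the amount of this machinery to its use, and the coactivator Ppargc1a, the receptor Esrra and the muscle protein Perm1 are known to promote transcription of its nuclear genes. p53 is a transcription factor best known for its response to DNA damage.

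All muscles came from male mice aged 8 weeks and were taken at day 3, on 17 arrays with 1 sample each. In the immobilization experiment, immobile p53 mKO hindlimbs, immobile hindlimbs of littermate control mice and mobile hindlimbs of littermate control mice gave 3 arrays each. In the transfection experiment, muscles of C57BL/6 mice transfected with a p53 plasmid or with a control plasmid gave 4 arrays each. The labels do not spell out p53 mKO, name no promoter or Cre, give no strain for the littermates, and do not say how the plasmids were delivered or which limbs share a mouse. No probe was listed for Trp53, the gene of p53, so neither the p53 mKO nor the plasmid was checked at that gene. No mobile p53 mKO limb was in the set.

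Levels are log2 values as deposited, which ran from 8.21 to 15.61, with array medians from 8.48 to 8.5. Genes were tested with limma in each experiment, and a gene is called when its p-value, adjusted by the Benjamini-Hochberg method over all genes tested, is under 0.05. Markers of skeletal muscle fibres had array means of 14.85 to 15.18 on all arrays, near the top of the scale. Markers of lymphocytes had array means of 8.36 to 8.58, near the lowest values of the table. Of the 86 members, 82 passed the filter on low values among the immobilization arrays and 80 among the transfection arrays, and counts below are given out of all 86. Cox7b2, Cox8c, Ndufs1 and Uqcrq passed in neither, and Cox4i2 and Cox6b2 were also below the filter in the transfection experiment. Cox6b2, Cox7b2 and Cox8c are known as testis isoforms and Cox4i2 as a lung isoform. For Ndufs1 and Uqcrq, which encode subunits that every cell uses, values near the floor mean that these probes could show no change.

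The members' mean levels were highest in mobile control muscle for 69 of 86 and lowest in p53 plasmid muscle for 74 of 86, with 61 members meeting both. This order runs across the 2 experiments, and it was not counted over all genes. Of all genes tested, 21.1% were called lower in control plasmid than in mobile control muscle. With the p53 plasmid, 28.6% were called lower than with the control plasmid. Set against the mobile control mean, the median member's deviation was -0.28, -0.17 and -0.17 log2 units on the immobile control arrays. On the immobile p53 mKO arrays the same deviation was -0.20, -0.19 and -0.14. On the p53 plasmid arrays, set against the control plasmid mean, it was -0.36, -0.55, -0.37 and -0.34. Over all genes tested, the median deviation stayed between -0.02 and 0.03 on all 17 arrays. Array 2 of the p53 plasmid group was the lowest of the 17 for these genes.

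**Figure D1:**
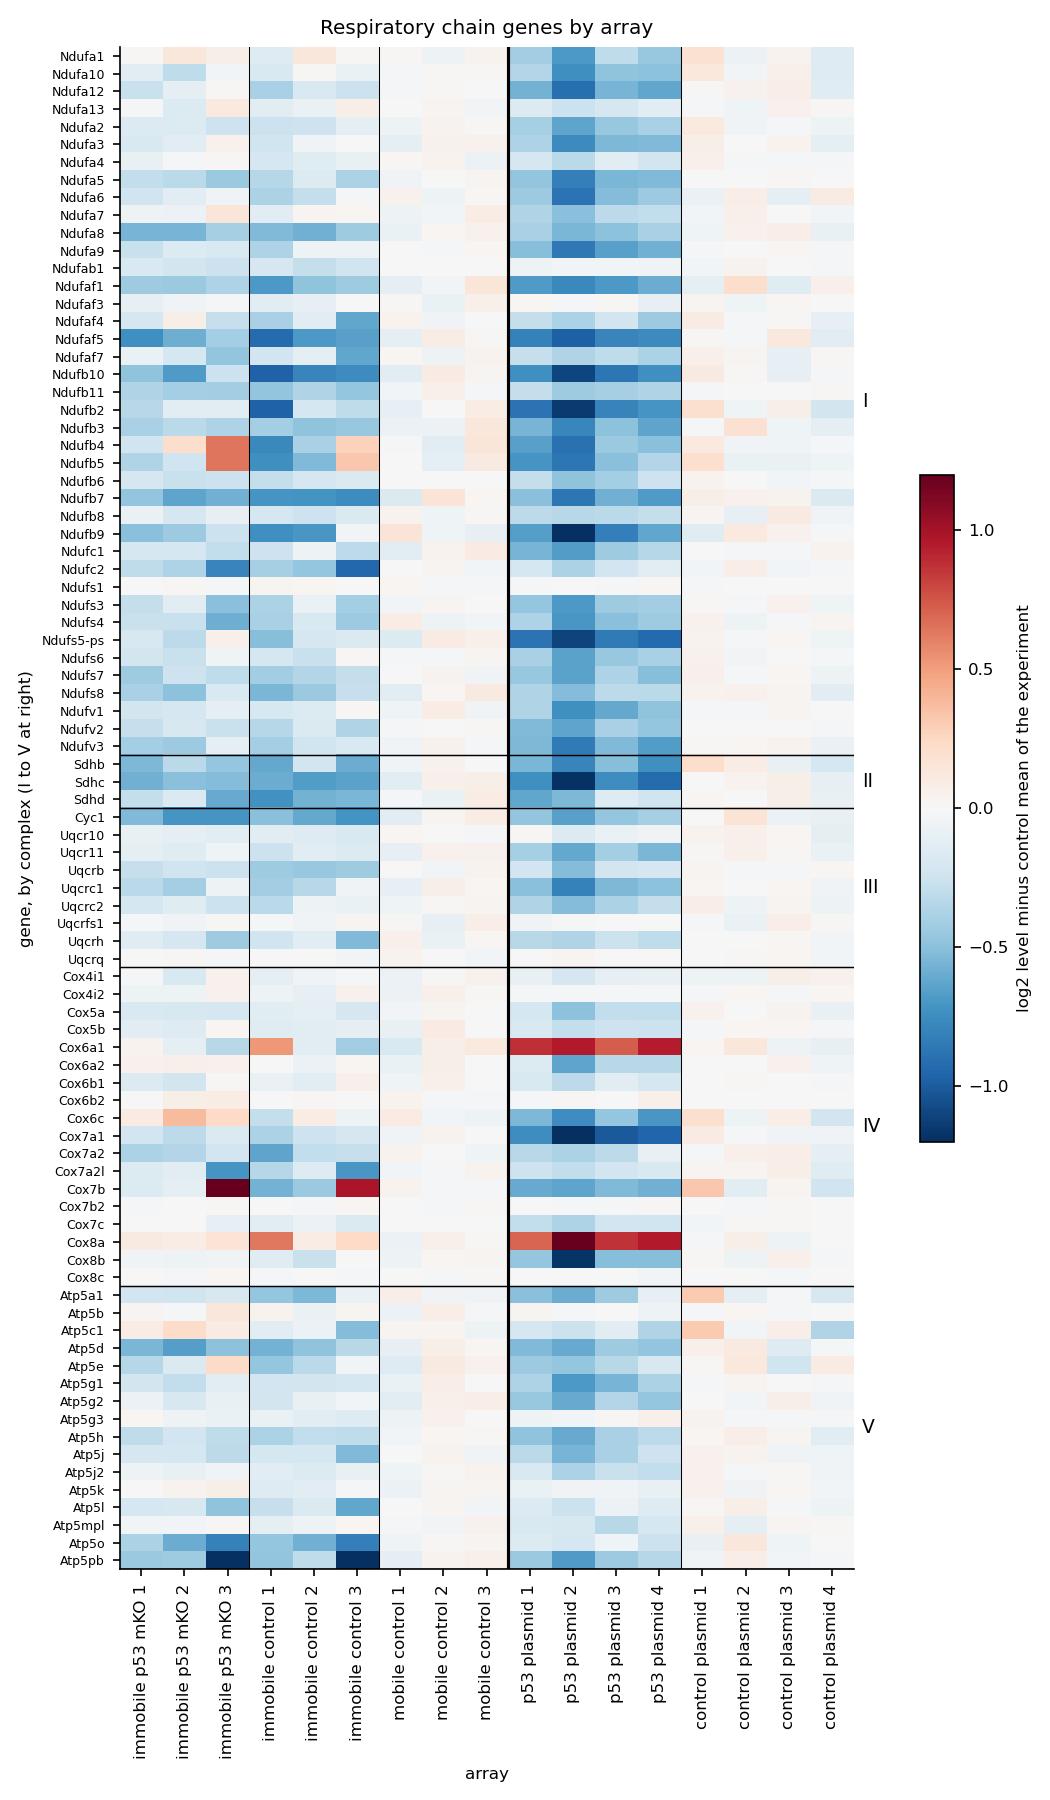
Deviation of each of the 86 members (rows, grouped by complex) on each of the 17 arrays (columns), in log2 units from the mean of the experiment's own controls, which are the mobile control arrays left of the thick line and the control plasmid arrays right of it. The colour scale ends at 1.2 in either direction; p53 plasmid columns are blue in most rows, with Cox6a1 and Cox8a red, and immobile columns are a paler blue in both genotypes.

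The first question was which respiratory chain genes respond to immobilization, in immobile control against mobile control limbs. Of the 86 members, 28 fell and 0 rose, against a background of 6.36% of all genes tested called lower and 5.1% called higher. The members' median difference was -0.23 log2 units, against 0.0 over all genes tested, and 80 of 86 members had a difference below 0. For 52 of 86 members every immobile control array lay below every mobile control array, which held for 14.6% of all genes tested. The count of called members rested in part on the mobile control arrays, being 17 without mobile control array 2 and 16 without array 3.

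Complex II fell as a whole, as far as it was measured. Sdhc, which with Sdhd anchors succinate dehydrogenase in the membrane, had 13.23, 13.15 and 13.18 in immobile control limbs, against 13.70, 13.88 and 13.89 in mobile control limbs. The groups were well apart, and the difference was -0.64 ± 0.06 (SE, adjusted p = 0.000566 by limma). Sdhd had 10.52, 10.68 and 10.70 in immobile control limbs and 11.23, 11.17 and 11.34 in mobile control limbs (-0.61 ± 0.11). Sdhb, the iron-sulfur subunit, fell by 0.48 (log2 difference -0.48 ± 0.11). All 3 members were thus called, with a median difference of -0.61.

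In complex I, 15 of 40 members fell and the median difference was -0.29. Ndufb10, an accessory subunit of the membrane arm, showed the largest called fall of all members, with 10.49, 10.67 and 10.71 in immobile control limbs against 11.33, 11.56 and 11.50 in mobile control limbs. Its difference was -0.84 ± 0.12 (adjusted p = 0.0035 by limma), a level 1.79-fold lower in immobile limbs. Ndufb7, another accessory subunit of that arm, had 10.85, 10.84 and 10.80 in immobile control limbs and 11.38, 11.71 and 11.58 in mobile control limbs, a fall of 0.73 (-0.73 ± 0.08). Ndufb11 had 9.16, 9.28 and 9.17 in immobile control limbs, against 9.60, 9.70 and 9.61 in mobile control limbs (-0.43 ± 0.05). The subunits that carry iron-sulfur clusters were split by the test: Ndufs7, Ndufs8 and Ndufv2 fell by 0.35, 0.42 and 0.29, while Ndufv1, the flavin subunit, differed by -0.11 ± 0.07 and was not called.

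The assembly factors of complex I moved the same way. Ndufaf5, which in human cells modifies the subunit encoded by NDUFS7, had 10.77, 11.00 and 11.04 in immobile control limbs, against 11.59, 11.78 and 11.71 in mobile control limbs. No array overlapped, and the difference was -0.76 ± 0.10 (adjusted p = 0.00341 by limma). Ndufaf1 fell by 0.53, while Ndufaf3, Ndufaf4 and Ndufaf7 had differences of -0.08, -0.38 and -0.32 that were not called. The median over the 5 assembly factors was -0.38, beside -0.28 over the 34 subunits of complex I. Over the 79 subunits of all complexes it was -0.22, and these differences were not tested.

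Complex III had 3 of 9 members called. Uqcrb, a small subunit close to the ubiquinone site, had 13.61, 13.58 and 13.61 in immobile control limbs, against 14.03, 14 and 14.08 in mobile control limbs. With this narrow spread it had the smallest adjusted p of the members, 0.000342 by limma, for a difference of -0.44 ± 0.03. Cyc1, the cytochrome c1 subunit, had 13.20, 13.09 and 12.99 in immobile control limbs and 13.58, 13.74 and 13.79 in mobile control limbs (-0.61 ± 0.08). Uqcr10 fell by 0.16, and the core subunits Uqcrc1 and Uqcrc2 had differences of -0.27 ± 0.12 and -0.16 ± 0.07 that were not called.

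Complex IV changed least by its median, -0.05, with Cox5a, Cox7a1 and Cox7a2 called among 18. Of these 18 members, 8 have a mean level above 14 and 4 a mean level up to 9. In complex III these numbers were 4 and 2 of 9 members, with a median difference of -0.19. In complex V they were 6 and 1 of 16, with a median of -0.26. Over the 30 members with a mean level above 14 the median difference was -0.15, over the 32 from 12 to 14 it was -0.32, over the 14 from 9 to 12 it was -0.46, and over the 10 members up to 9 it was -0.01. Members above 14 could still be called, as were Ndufs7, Ndufa5 and Ndufv2 of complex I with differences of -0.35, -0.30 and -0.29. Whether the scale flattens the differences of the brightest probes was not tested. Cox5a, a subunit on the matrix side, fell by 0.15, and Cox4i1 had a difference of -0.06 ± 0.07.

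**Figure D2:**
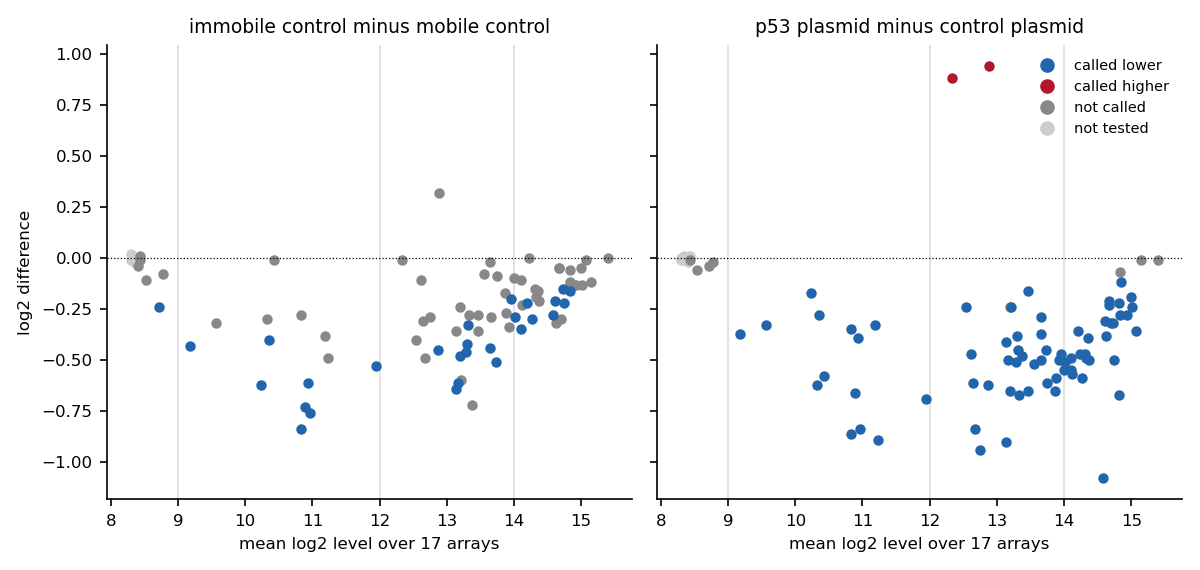
Log2 difference of each of the 86 members (vertical axis) against its mean log2 level over 17 arrays (horizontal axis), for immobile control minus mobile control limbs and p53 plasmid minus control plasmid muscles, with grey lines at levels of 9, 12 and 14. Members up to 9 lie close to 0 in both panels, and those above 14 have a median of -0.15 under immobilization and -0.36 with the p53 plasmid.

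In complex V, 4 of 16 members fell and the median was -0.26. Atp5o, the stalk subunit that holds the catalytic head, had 10.21, 10.10 and 9.85 in immobile control limbs, against 10.62, 10.69 and 10.71 in mobile control limbs (-0.62 ± 0.12, adjusted p = 0.0154 by limma). It was no longer called without mobile control array 2 or 3 (adjusted p = 0.0638 without array 2). Atp5h, another stalk subunit, had 13.31, 13.39 and 13.38 in immobile control limbs and 13.65, 13.71 and 13.70 in mobile control limbs (-0.33 ± 0.04). Atp5d, in the central stalk, fell by 0.46. Atp5b, the catalytic beta subunit, had a difference of 0.00 ± 0.06 at a mean level of 15.4, close to the top of the scale.

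Of the marker lists, only those of macrophages and of slow fibres had a called gene between these limbs, 1 each. Of 9 fibre genes with a probe, 0 were called, with array means of 15.03 to 15.15 in immobile control limbs and 15.11 to 15.16 in mobile control limbs. Of 8 macrophage genes, 1 was called higher, with array means of 9.95 to 11.47 in immobile control limbs and 9.51 to 9.63 in mobile control limbs. Of 7 slow fibre genes 1 was called lower, with array means of 10.35 to 10.46 in immobile control limbs and 10.56 to 10.86 in mobile control limbs, which do not overlap. That gene, Myl2, a myosin light chain of slow and heart muscle, had 10.98, 10.80 and 11.12 in immobile control limbs and 12.24, 12.77 and 13.02 in mobile control limbs (-1.71 ± 0.34), while the median over the 7 genes was 0.08. In the lists of neutrophils, endothelium, fibroblasts, adipocytes, brown adipocytes, Schwann cells and erythroid cells 0 genes were called, and no lymphocyte gene passed the filter. The highest macrophage mean, 11.47, was on immobile control array 1. The part of the macrophage and slow fibre genes in the members' falls was not tested. In whole muscle, fewer cells of a type and less RNA per cell cannot be told apart.

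Assembly factors and carriers outside the rule were mostly called lower where they were called. Of 51 assembly factors and electron carriers outside the rule with a probe, 19 fell and 1 rose, with a median of -0.22, beside the 6.36% and 5.1% of all genes tested given above. Of 25 regulators of mitochondrial transcription 6 fell and 0 rose, with a median of -0.03 against 0.0 over all genes. Perm1 showed the largest of these falls, with 11.21, 10.86 and 10.92 in immobile control limbs against 13.08, 13.39 and 13.49 in mobile control limbs, a level 5.0-fold lower in immobile limbs (-2.32 ± 0.13, adjusted p = 7.73e-05 by limma). Esrra had 11.01, 11.01 and 10.81 in immobile control limbs and 11.62, 11.78 and 11.85 in mobile control limbs (-0.81 ± 0.08). Ppargc1a and Esrrb fell by 0.60 and 0.48. Among assembly factors, Cox10, which acts in making the heme of complex IV, fell by 0.68, Sdhaf4 of complex II by 0.65, and Bcs1l of complex III by 0.52. The gene that rose was Cox19, which takes part in copper delivery to complex IV (0.39 ± 0.07).

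**Figure D3:**
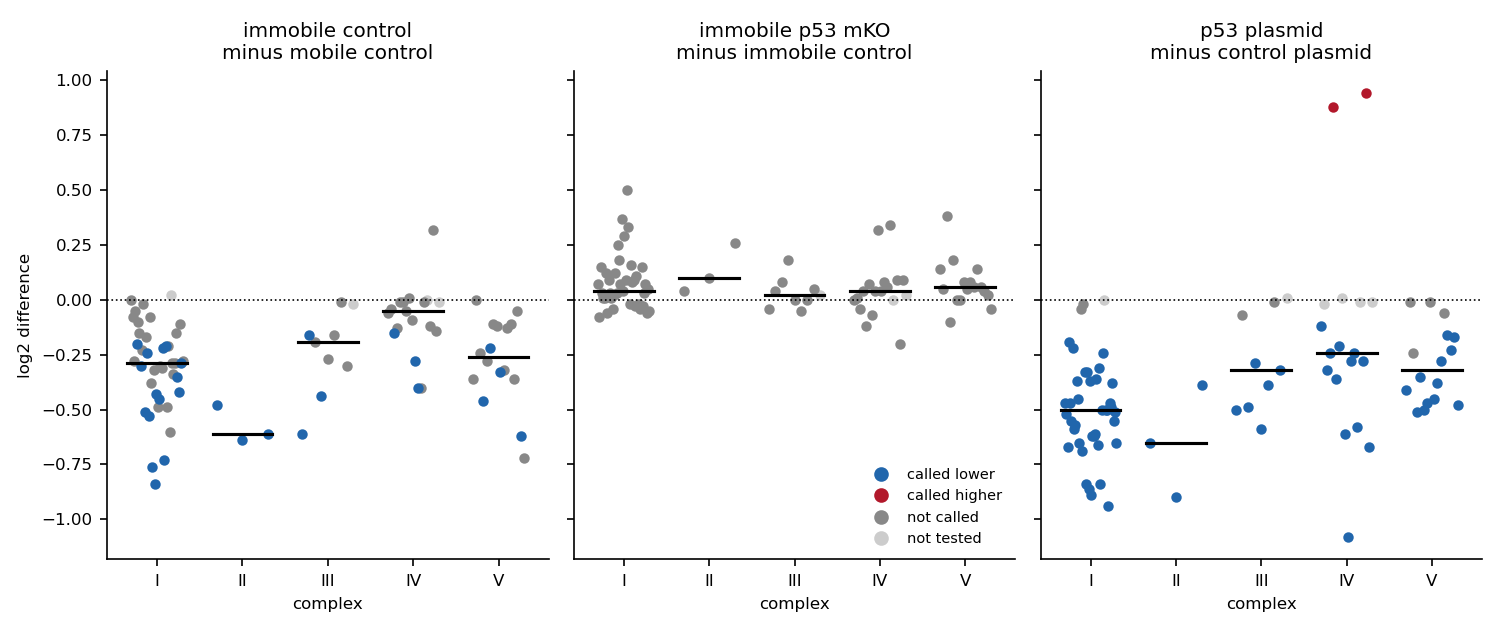
Log2 difference of each member by complex (I to V) in the 3 comparisons within an experiment, each point 1 gene, with black bars at the median of the complex and a dotted line at the median of all genes tested. Complex I medians were -0.29 in immobile control against mobile control limbs, 0.04 in immobile p53 mKO against immobile control limbs and -0.50 in p53 plasmid against control plasmid muscles.

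The second question was whether these genes differ in p53 mKO muscle when both limbs are immobile. None did by the test: 0 of 86 members were called in either direction, as were 0.0% of all genes tested. By unadjusted p under 0.05, 7 members were higher and 0 lower, against 1.81% of all genes tested that were higher. The differences were mostly small and above 0, in 64 of 86 members, with a median of 0.04 against 0.0 over all genes. In 9 members every p53 mKO array lay above every immobile control array, which held for 2.94% of all genes tested. The opposite order was found in 0 members and in 2.66% of all genes tested. The 95% interval of a member's difference reached 0.18 log2 units to either side at the median, and for 68 of 82 members it lay within 0.5 of 0. These intervals and those below come from the fit without replicate numbers, although the numbers paired these groups (correlations of deviations 0.621, 0.484 and 0.813). Intervals from a paired fit are not given here. With replicate number added to the fit, 0 members were called.

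Uqcrb was nearest to a call. It had 13.76, 13.80 and 13.78 in immobile p53 mKO limbs, against 13.61, 13.58 and 13.61 in immobile control limbs, with no overlap. The difference was 0.18 ± 0.03 (95% interval 0.10 to 0.26), and its adjusted p was 1 by limma. Ndufb10 had 10.98, 10.78 and 11.21 in immobile p53 mKO limbs and 10.49, 10.67 and 10.71 in immobile control limbs (0.37 ± 0.12, 95% interval 0.10 to 0.63). Atp5c1, the rotating gamma subunit of complex V, had 13.42, 13.55 and 13.43 in immobile p53 mKO limbs and 13.19, 13.26 and 12.81 in immobile control limbs (0.38 ± 0.11). In the other direction the members with the smallest unadjusted p were Cox8a with a difference of -0.20 ± 0.12, Atp5d with -0.10 ± 0.07 and Cox5a with -0.04 ± 0.04. The p53 mKO differences of the other called members with the largest falls under immobilization were as follows. They were 0.26 for Sdhd (95% interval 0.00 to 0.51), 0.18 for Ndufaf5 (-0.05 to 0.42) and 0.16 for Ndufb7 (-0.03 to 0.35). For Sdhc the difference was 0.10 (-0.03 to 0.23), for Atp5o 0.02 (-0.26 to 0.30) and for Cyc1 -0.04 (-0.22 to 0.15). The immobilization and p53 mKO comparisons share the immobile control arrays. Atp5pb, with a large fall under immobilization that was not called, averaged 13.12 in immobile p53 mKO and 13.16 in immobile control limbs. A dimmer probe of Ndufaf5 gave 0.48 ± 0.12 (unadjusted p = 0.00461 by limma, adjusted p = 1).

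The immobile arrays numbered 3 stood apart from the others in a few members, in both genotypes. Cox7b, a small subunit of complex IV, had 10.56, 10.61 and 11.98 in immobile p53 mKO limbs, 10.15, 10.27 and 11.70 in immobile control limbs, and 10.76, 10.70 and 10.70 in mobile control limbs. Array 3 was far above the rest in both immobile groups. Ndufb5 behaved likewise, with 12.68, 12.80 and 13.69 in p53 mKO limbs, 12.31, 12.51 and 13.37 in immobile control limbs, and 13.05, 12.93 and 13.15 in mobile control limbs. Atp5pb, the stalk subunit b, went the opposite way, with 13.44, 13.46 and 12.46 in p53 mKO limbs, 13.41, 13.58 and 12.50 in immobile control limbs, and 13.78, 13.93 and 13.95 in mobile control limbs. In all, 5 members were higher and 6 lower by more than 0.3 on both arrays numbered 3 than on the others of their group. This was not counted over all genes. The shift was not limited to the members: over all genes tested, deviations of the 2 arrays from their group means correlated at 0.813. Without these 2 arrays 41 members were called lower in immobile control limbs, and 0 differed with p53 mKO.

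Set against mobile control limbs, immobile p53 mKO limbs had 22 of 86 members called lower and 0 higher, against 5.28% of all genes tested called lower and 4.47% called higher. This comparison shares its mobile control arrays with the first one, so the values are only given side by side. The members' median was -0.19 in p53 mKO limbs, where it was -0.23 in immobile control limbs. Cyc1 had 13.17, 13.00 and 13.00 in immobile p53 mKO limbs, against 13.58, 13.74 and 13.79 in mobile control limbs (-0.65 ± 0.08, adjusted p = 0.00277 by limma). Sdhc had 13.25, 13.32 and 13.30 in p53 mKO limbs, against 13.70, 13.88 and 13.89 in mobile control limbs (-0.53 ± 0.06). Atp5d fell by 0.57, Atp5o by 0.60, Ndufaf5 by 0.57 and Ndufb7 by 0.56. The count was 11 without mobile control array 2, 12 without mobile control array 3 and 14 without p53 mKO array 2. Of the 51 assembly factors and carriers, 14 fell and 1 rose, and Perm1 fell by 2.04.

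**Figure D4:**
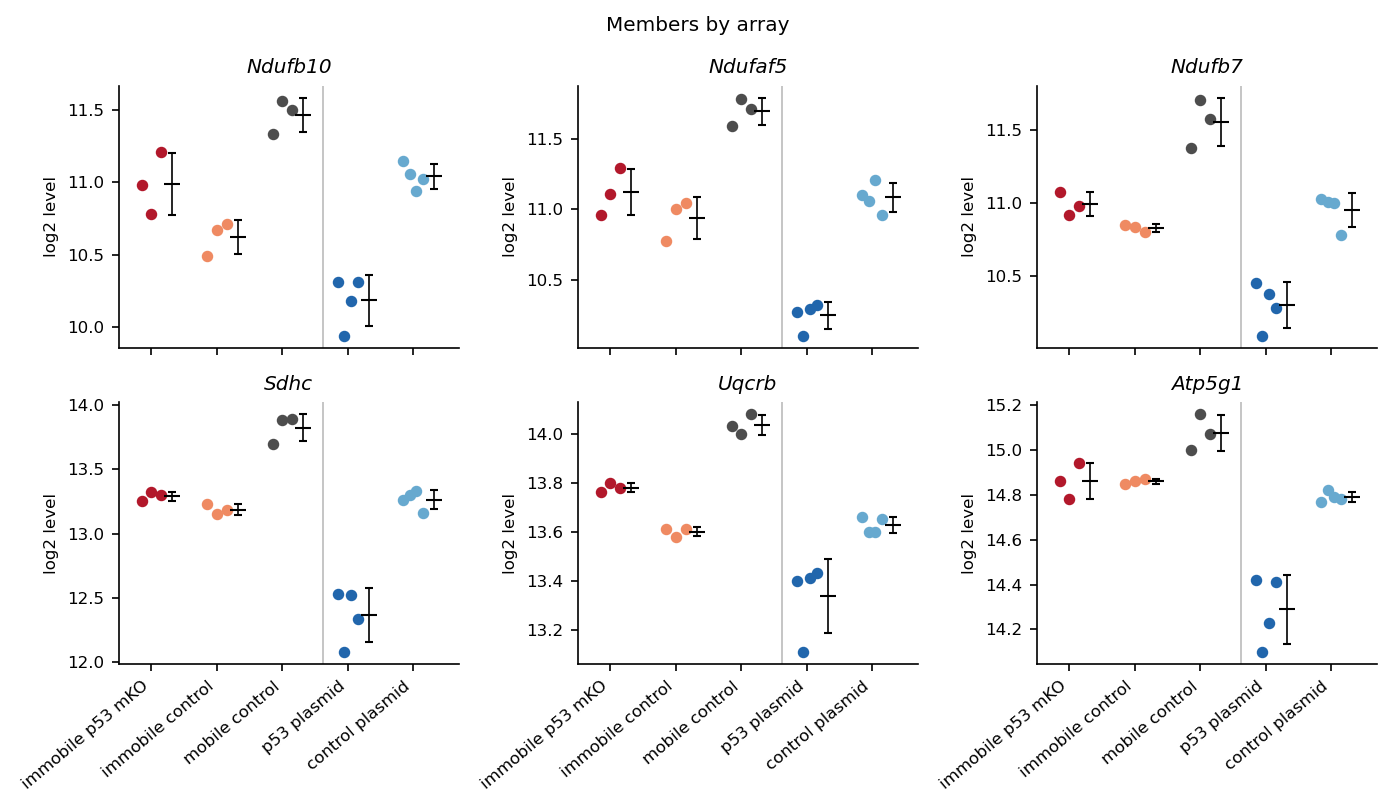
Log2 level of 6 members (1 panel each) on every array of the 5 groups, with the group mean and SD as a bar (n = 3 arrays per immobilization group and 4 per transfection group); the grey line separates the experiments. In all 6 panels the immobile arrays of both genotypes lie below the mobile control arrays, and the p53 plasmid arrays lie below the control plasmid arrays.

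The third question was which members respond to the p53 plasmid, in p53 plasmid against control plasmid muscle. Of the 86 members, 70 fell and 2 rose. The experiment had many calls in general, with 28.6% of all genes tested called lower and 30.2% called higher. The members' median difference was -0.39, against 0.0 over all genes tested. In 66 of 86 members every p53 plasmid array lay below every control plasmid array, which held for 26.8% of all genes tested. All of the complexes took part, with 37 of 40 members of complex I called lower, 3 of 3 of complex II, 6 of 9 of complex III, 12 of 18 of complex IV and 12 of 16 of complex V. Their medians were -0.50, -0.65, -0.32, -0.24 and -0.32.

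In complex II, Sdhc had 12.53, 12.08, 12.52 and 12.34 in p53 plasmid muscle, against 13.26, 13.30, 13.33 and 13.16 in control plasmid muscle. Array 2 was the lowest, and all 4 lay below all controls (-0.90 ± 0.10, adjusted p = 0.000109 by limma). A second, dim probe of Sdhc with a mean of 8.4 was not called. Sdhb and Sdhd fell by 0.65 and 0.39.

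In complex I, Ndufb2, an accessory subunit of the membrane arm, had 10.27, 10.01, 10.36 and 10.45 in p53 plasmid muscle, against 11.35, 11.11, 11.23 and 10.94 in control plasmid muscle (-0.89 ± 0.11, adjusted p = 0.000237 by limma). Ndufaf5 had 10.27, 10.10, 10.29 and 10.32 in p53 plasmid muscle and 11.10, 11.06, 11.21 and 10.96 in control plasmid muscle (-0.84 ± 0.06). These were nearly the deepest falls of the complex, together with Ndufb10, which fell by 0.86. Of the 5 assembly factors 4 fell, Ndufaf3 at a mean level up to 9 being the exception. The flavin subunit Ndufv1 fell by 0.55, and the cluster subunits Ndufs7, Ndufs8 and Ndufv2 fell by 0.49, 0.38 and 0.51. The probe annotated to the pseudogene Ndufs5-ps had 11.94, 11.71, 11.98 and 11.89 in p53 plasmid muscle and 12.87, 12.81, 12.85 and 12.77 in control plasmid muscle (-0.94 ± 0.06). Ndufs5 itself had no listed probe, and whether this probe also reads that gene could not be checked here.

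In complex III, Uqcrh, the hinge subunit by which cytochrome c binds, had 14.47, 14.44, 14.55 and 14.50 in p53 plasmid muscle, against 14.81, 14.81, 14.83 and 14.77 in control plasmid muscle. The spread within each group was small, and the difference was -0.32 ± 0.03 (adjusted p = 5.51e-05 by limma). Uqcrc1 and Cyc1 fell by 0.59 and 0.50. Uqcr10 had a difference of -0.07 ± 0.05 and was not called.

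In complex V, the 3 genes for the c ring, whose mature proteins are the same, were not all called. Atp5g1 had 14.42, 14.10, 14.23 and 14.41 in p53 plasmid muscle, against 14.77, 14.82, 14.79 and 14.78 in control plasmid muscle (-0.50 ± 0.07, adjusted p = 0.000378 by limma). Atp5g2 had 12.18, 12.03, 12.28 and 12.17 in p53 plasmid muscle and 12.64, 12.60, 12.71 and 12.59 in control plasmid muscle (-0.47 ± 0.05). Atp5g3 had 15.06, 15.09, 15.13 and 15.18 in p53 plasmid muscle, against 15.16, 15.11, 15.10 and 15.11 in control plasmid muscle, and its difference was -0.01 with a 95% interval of -0.08 to 0.07. The Atp5g3 arrays overlapped. Under immobilization the same genes had differences of -0.22, -0.11 and -0.12, of which that of Atp5g1 was called. This call was lost in 10 alternative settings, the replicate block, quantile normalization and the stricter filter among them, with an adjusted p of up to 0.138 by limma (without mobile control array 2). Atp5b averaged 15.37 ± 0.04 in p53 plasmid muscle and 15.38 ± 0.02 in control plasmid muscle (SD, n = 4 each).

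Complex IV held the 2 members that rose, and both are the widely expressed forms of subunits that also have a muscle form. Cox6a1, Cox7a2 and Cox8a are expressed in most tissues, and Cox6a2, Cox7a1 and Cox8b are their counterparts in heart and skeletal muscle. Promoter sequences are shown for the isoforms that have an entry, since the forms of a subunit moved apart. Each is 250 bases before to 50 after the start, from RefSeq on GRCm38.p6, 5′ to 3′ on the gene's strand, with motif matches in capitals. Cox6a1 (chr5:115348909-115349208, minus strand), Cox8a (chr19:7217567-7217866, minus strand), Cox7a2 (chr9:79759804-79760103, minus strand), Cox8b (chr7:140900397-140900696, minus strand) and Cox7a1 (chr7:30183921-30184220, plus strand) are printed in this order, and Cox6a2 is named only.
Cox6a1: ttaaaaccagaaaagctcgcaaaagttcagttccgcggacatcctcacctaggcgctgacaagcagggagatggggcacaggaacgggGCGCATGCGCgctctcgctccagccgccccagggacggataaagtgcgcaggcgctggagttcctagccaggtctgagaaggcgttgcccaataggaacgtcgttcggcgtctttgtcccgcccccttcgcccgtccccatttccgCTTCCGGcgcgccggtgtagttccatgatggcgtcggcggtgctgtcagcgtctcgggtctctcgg
Cox8a: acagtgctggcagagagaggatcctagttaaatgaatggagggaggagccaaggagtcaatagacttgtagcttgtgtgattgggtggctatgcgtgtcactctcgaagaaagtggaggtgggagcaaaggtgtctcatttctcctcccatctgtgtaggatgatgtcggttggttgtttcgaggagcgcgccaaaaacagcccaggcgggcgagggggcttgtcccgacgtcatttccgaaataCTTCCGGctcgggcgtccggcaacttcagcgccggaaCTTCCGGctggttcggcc
Cox7a2: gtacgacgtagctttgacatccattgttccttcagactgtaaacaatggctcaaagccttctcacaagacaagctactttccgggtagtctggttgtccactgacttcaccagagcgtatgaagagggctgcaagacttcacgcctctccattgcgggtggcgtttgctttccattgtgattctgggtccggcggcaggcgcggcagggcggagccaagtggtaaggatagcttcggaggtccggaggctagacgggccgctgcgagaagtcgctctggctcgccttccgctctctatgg
Cox8b: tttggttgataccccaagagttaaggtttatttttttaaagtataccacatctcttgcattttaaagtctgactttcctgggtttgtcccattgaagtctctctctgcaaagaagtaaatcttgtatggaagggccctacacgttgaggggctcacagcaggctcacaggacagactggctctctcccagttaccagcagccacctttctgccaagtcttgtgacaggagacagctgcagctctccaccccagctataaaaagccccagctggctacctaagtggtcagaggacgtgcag
Cox7a1: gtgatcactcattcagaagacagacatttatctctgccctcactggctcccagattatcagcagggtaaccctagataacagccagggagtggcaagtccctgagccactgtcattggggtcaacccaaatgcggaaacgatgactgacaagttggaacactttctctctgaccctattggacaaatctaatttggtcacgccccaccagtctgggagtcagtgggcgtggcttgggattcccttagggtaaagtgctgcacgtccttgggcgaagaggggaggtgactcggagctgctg
The motifs searched on both strands were the consensus of NRF1, which is the first run of capitals in the Cox6a1 line, CCGGAAG for ETS factors, AAGGTCA for estrogen-related receptors and TGACGTCA for cyclic AMP response elements, and they do not overlap here. Cox6a1 holds 1 NRF1 and 1 ETS match and Cox8a holds 2 ETS matches, while none of these letters occur in the Cox7a2, Cox8b or Cox7a1 windows. The number of CpG pairs was 32 for Cox6a1, 19 for Cox8a and 20 for Cox7a2, beside 2 for Cox8b and 7 for Cox7a1. A promoter entry was found for 70 of the 86 members, with 75 windows. The ETS letters were in 22.7% of these windows and in 8.86% of all 32851 promoters, and the NRF1 letters in 8.0% and 0.971%. The receptor letters were in 9.33% and 4.72%, and the cyclic AMP letters in 4.0% and 1.79%. The median number of CpG pairs was 19 in the members' windows and 7 in all promoters. A match describes the letters and shows no binding.

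Cox8a had 13.46, 13.98, 13.62 and 13.71 in p53 plasmid muscle, against 12.74, 12.83, 12.70 and 12.76 in control plasmid muscle. It was thus 1.91-fold higher (0.94 ± 0.10, adjusted p = 9.1e-05 by limma). Its muscle counterpart Cox8b had 14.43, 13.72, 14.39 and 14.39 in p53 plasmid muscle and 14.92, 14.84, 14.96 and 14.87 in control plasmid muscle (-0.67 ± 0.15). Array 2 was the highest of the p53 plasmid arrays for Cox8a and the lowest for Cox8b.

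Cox6a1 had 13.25, 13.33, 13.10 and 13.32 in p53 plasmid muscle, against 12.40, 12.51, 12.31 and 12.28 in control plasmid muscle, 1.83-fold higher (0.88 ± 0.07, adjusted p = 2.48e-05 by limma). Its second probe gave a difference of 1.01. Cox6a2 had 14.95, 14.48, 14.78 and 14.78 in p53 plasmid muscle and 15.11, 15.11, 15.16 and 15.06 in control plasmid muscle (-0.36 ± 0.09).

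For subunit 7a both forms fell, the muscle form by more. Cox7a1 had 13.99, 13.11, 13.72 and 13.78 in p53 plasmid muscle, against 14.83, 14.72, 14.69 and 14.69 in control plasmid muscle, the largest change of any member at 2.12-fold lower (-1.08 ± 0.17, adjusted p = 0.000645 by limma). Cox7a2 had 10.09, 10.04, 10.11 and 10.33 in p53 plasmid muscle and 10.40, 10.48, 10.50 and 10.31 in control plasmid muscle, with 1 array overlapping (-0.28 ± 0.07). The change of the widely expressed form minus that of the muscle form was 1.60 for subunit 8, 1.24 for subunit 6a and 0.80 for subunit 7a. An exact two-sided permutation test over 70 assignments gave p = 0.0286 for each of the 3 pairs and 0.0286 after adjustment over them, the smallest value it can give. The test was added after the data were seen, and no other pairs of genes were tested for comparison. Cox4i1, whose other form Cox4i2 lay near the floor, had 14.70, 14.59, 14.69 and 14.70 in p53 plasmid muscle and 14.73, 14.73, 14.86 and 14.84 in control plasmid muscle (-0.12 ± 0.04).

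Under immobilization the exact permutation test could not fall under 0.05, since 0.1 is the smallest p that 3 against 3 arrays allow. The same difference was 0.46 for subunit 8, 0.00 for subunit 6a and -0.12 for subunit 7a in immobile control against mobile control limbs. The exact permutation p was 0.1, 1.0 and 0.2 in this order, and 0.3, 1.0 and 0.3 after adjustment over the pairs. For subunit 8, the widely expressed form minus the muscle form was higher on every immobile control array than on every mobile control array. In immobile p53 mKO against immobile control limbs the differences were -0.29, -0.19 and 0.04 (exact permutation p of 0.1, 0.7 and 0.7). Cox7a1 fell, with 14.71, 14.84 and 14.89 in immobile control limbs and 15.05, 15.13 and 15.09 in mobile control limbs (-0.28 ± 0.06), a call that was lost in the fit of all 17 arrays (adjusted p = 0.234 by limma). Cox7a2 had 10.01, 10.35 and 10.37 in immobile control limbs and 10.69, 10.65 and 10.59 in mobile control limbs (-0.40 ± 0.10), and its call was lost in 6 settings, with an adjusted p of up to 0.113 by limma (without mobile control array 2). Cox6a1 and Cox8a were highest on immobile control array 1, at 12.48 and 13.08, and had 11.54 to 11.82 and 12.54 to 12.69 on the other arrays of that group. That array also had the highest macrophage marker mean of the immobilization experiment, and a link between these values was not tested.

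**Figure D5:**
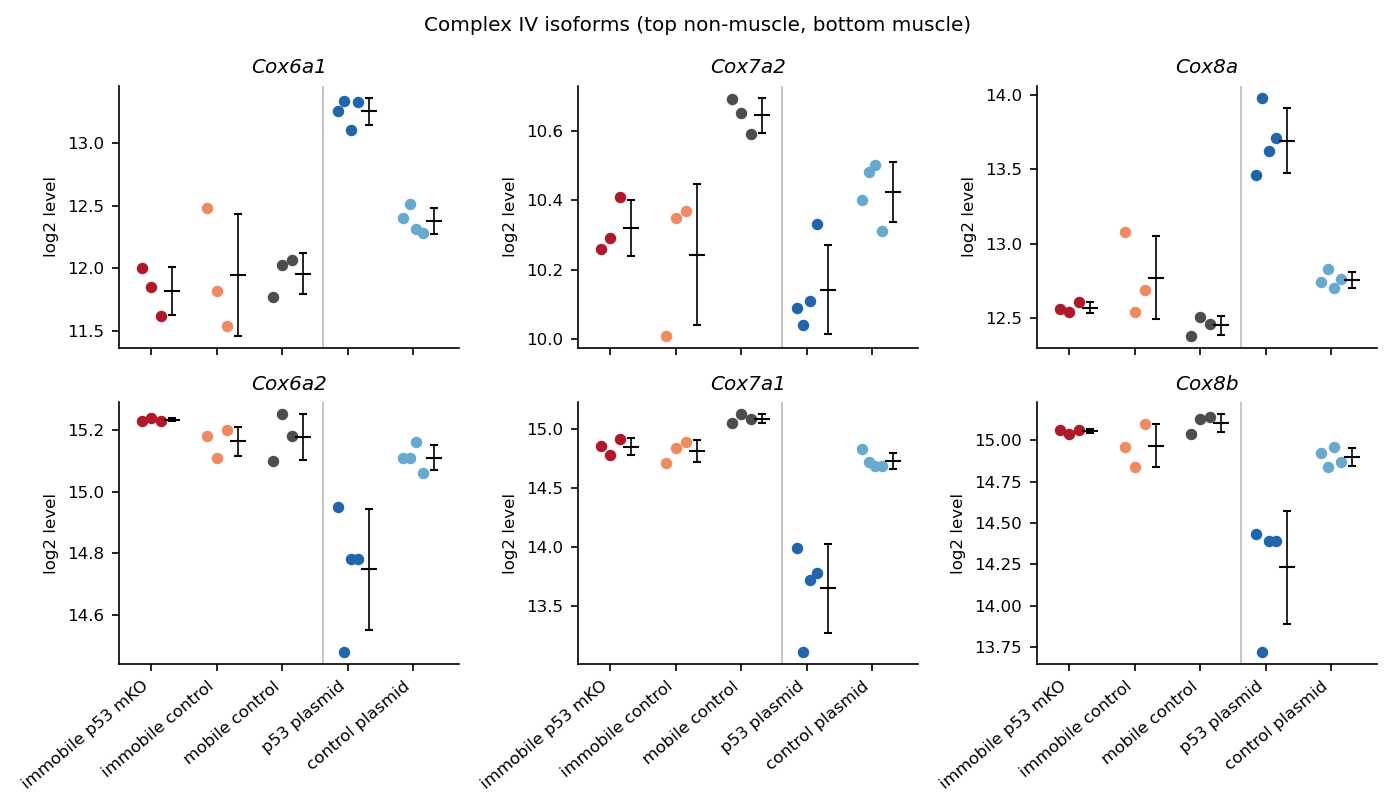
Log2 level of the widely expressed (top) and muscle (bottom) forms of complex IV subunits 6a, 7a and 8 on every array of the 5 groups, with the group mean and SD as a bar (n = 3 arrays per immobilization group and 4 per transfection group). Cox6a1 and Cox8a lie above the control plasmid arrays on all 4 p53 plasmid arrays, and Cox6a2, Cox7a1 and Cox8b lie below them on all 4.

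Several marker lists differed with the p53 plasmid, in a comparison that called 28.6% of all genes lower and 30.2% higher. All 8 macrophage genes with a probe rose, with array means of 12.36 to 12.53 in p53 plasmid muscle and 11.01 to 11.38 in control plasmid muscle. Of 9 fibre genes 3 fell, a share near that of all genes, with array means of 14.85 to 14.99 in p53 plasmid muscle and 15.04 to 15.09 in control plasmid muscle, the lowest again on p53 plasmid array 2. Of 7 slow fibre genes 3 fell, with a median of -0.19 and array means of 10.13 to 10.63 in p53 plasmid muscle and 10.43 to 11.11 in control plasmid muscle, which overlap. Among them Myl2 had 11.33, 10.12, 10.64 and 11.09 in p53 plasmid muscle and 12.21, 12.39, 11.64 and 11.57 in control plasmid muscle (-1.16 ± 0.29), and Myl3 and Atp2a2 fell by 1.16 and 0.44. Of 6 fibroblast genes 3 rose, with means of 12.15 to 12.58 in p53 plasmid muscle and 11.98 to 12.10 in control plasmid muscle. The 4 endothelial genes tested fell, with means of 9.16 to 9.23 in p53 plasmid muscle and 9.37 to 9.38 in control plasmid muscle. Of 4 neutrophil genes 2 rose, of 2 Schwann cell genes 1 fell, and in the lists of adipocytes, brown adipocytes, erythroid cells and lymphocytes 0 were called. No gene of these lists lay below the filter on all arrays. Their part in the falls of the members and in the rises of Cox6a1 and Cox8a was not tested.

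Most assembly factors and carriers were lower too. Of the 51, 42 fell and 0 rose, with a median of -0.32. Sdhaf3, an assembly factor of complex II, fell by 0.70 (adjusted p = 1.96e-05 by limma). Ttc19 of complex III and Ecsit of complex I fell by 0.90 and 0.97, and Higd2a, a complex IV and supercomplex factor, by 0.52. Of the 25 regulators, 14 fell and 3 rose, with a median of -0.12. Tfam, which packages the mitochondrial genome and takes part in its transcription, fell by 0.27, and Mterf2 fell by 0.42. Perm1, named above for immobilization, had 11.64, 10.50, 11.23 and 11.36 in p53 plasmid muscle, against 12.79, 12.70, 12.60 and 12.20 in control plasmid muscle (-1.39 ± 0.24). The 3 that rose were Nrf1 by 0.33 ± 0.05, Mterf1a by 0.15 and Gabpb1 by 0.09.

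The immobilization and p53 plasmid effects share no arrays, and their difference was tested in 1 fit of the 17 arrays. The immobilization effect minus the p53 plasmid effect was called higher, meaning less of a fall under immobilization, for 19 members and lower for 4, against 11.0% and 12.4% of all genes tested. The members' median was 0.13. By mean level, 9 of 30 members above 14 and 10 of 32 from 12 to 14 were called higher. Of the 14 members from 9 to 12 and the 10 up to 9, 0 were called higher. The medians were 0.17, 0.17, 0.01 and -0.01 in this order of levels. Why the calls lay with the brighter members was not tested. Cox7a1 (0.81 ± 0.20), Ndufs5-ps (0.65 ± 0.14), Cox6c (0.53 ± 0.15) and Ndufa9 (0.48 ± 0.11, adjusted p = 0.00698 by limma) led the first set. Cox6a1 (-0.89 ± 0.24), Cox8a (-0.61 ± 0.16), Atp5o (-0.45 ± 0.14) and Ndufab1 (-0.20 ± 0.04) made up the second. Cox6a1 and Cox8a stand there because they rose with the p53 plasmid, by 0.88 and 0.94. Under immobilization they had differences of -0.01 and 0.32 that were not called. Ndufab1 had a mean level of 8.72, near the floor. Atp5o fell under both, by 0.62 under immobilization and by 0.17 with the p53 plasmid. Ndufv1 was also in the first set (0.43 ± 0.10), while Ndufs7 (0.14 ± 0.08) and Ndufv2 (0.21 ± 0.07) were not called. Leaving out mobile control array 1 or 2 turned the count of 23 into 15, mobile control array 3 gave 13, and immobile control array 2 gave 14. It was 15 without control plasmid array 1 and 14 without control plasmid array 3.

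Control plasmid muscle was last set against mobile control muscle, which orders the 2 baselines. Of the 86 members, 50 were called lower and 0 higher, against 21.1% of all genes tested called lower and 15.9% called higher, and the median was -0.26 against -0.03 over all genes. Every control plasmid array lay below every mobile control array in 66 members and in 28.4% of all genes tested, and above it in 2 members and in 19.7%. Experiment, plasmid and handling differ together here, the strain may differ too since it is not labelled for the littermates, and these cannot be told apart. Ndufb11 had 9.14, 9.17, 9.16 and 9.18 in control plasmid muscle, against 9.60, 9.70 and 9.61 in mobile control limbs (-0.47 ± 0.04, adjusted p = 8.1e-07 by limma). Ndufb2 fell by 0.77, Ndufaf5 by 0.61, Ndufs8 by 0.58, Sdhc by 0.56 and Atp5d by 0.51. Complex I had 31 of 40 members called lower and complex IV 3 of 18. Cox6a1 and Cox8a had differences of 0.42 ± 0.17 and 0.31 ± 0.12 that were not called. All 8 macrophage genes were higher, with array means of 11.01 to 11.38 in control plasmid muscle and 9.51 to 9.63 in mobile control limbs. Of the slow fibre genes 3 were higher, and 4 endothelial and 3 erythroid genes were lower. Also lower were 2 of 9 fibre genes, 1 of 6 fibroblast genes and 1 of 4 adipocyte genes. Of 3 lymphocyte genes with a probe 2 were higher, at levels near the floor of the table. In the lists of neutrophils, brown adipocytes and Schwann cells 0 genes were called. The part of these genes in the members' differences was not tested. Of the 51 assembly factors and carriers 32 were lower and 3 higher.

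The order of the group means can be read for single members from these tests. Sdhc averaged 12.37 ± 0.21 in p53 plasmid muscle, 13.26 ± 0.07 in control plasmid muscle, 13.29 ± 0.04 in immobile p53 mKO limbs, 13.19 ± 0.04 in immobile control limbs and 13.82 ± 0.11 in mobile control limbs (SD, n = 4, 4, 3, 3 and 3). The 3 middle groups lay close together, and of these the immobile p53 mKO and immobile control limbs were compared and not called. Uqcrb averaged 13.34 ± 0.15, 13.63 ± 0.03, 13.78 ± 0.02, 13.60 ± 0.02 and 14.04 ± 0.04 in the same order of groups. Cox7a1 averaged 13.65 ± 0.38, 14.73 ± 0.07, 14.85 ± 0.07, 14.81 ± 0.09 and 15.09 ± 0.04 in that order.

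Several probes were listed for 16 of the members, with up to 4 each. In the p53 plasmid comparison the probes of 2 members had differences of opposite sign, and of 0 members when probes with a mean up to 9 were left out. Under immobilization these numbers were 2 and 1, and for p53 mKO against immobile control limbs, where the differences are small, they were 7 and 5. Ndufs4, a subunit that stabilises complex I, was not called by its brightest probe under immobilization (-0.34 ± 0.10), while its 3 dimmer probes were called, with differences of -0.33, -0.45 and -0.39. With p53 mKO against immobile control limbs the brightest probe gave -0.04 and the dimmer ones 0.19, 0.25 and 0.47 (unadjusted p = 0.0241, 0.0123 and 0.000328 by limma, adjusted p = 1 for each). For p53 mKO against mobile control limbs none of the 4 probes was called, at -0.38, -0.13, -0.20 and 0.09. All 4 probes of Ndufs4 fell with the p53 plasmid, by 0.50, 0.51, 0.56 and 0.51.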

How the data were processed

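RNA of 17 tibialis anterior samples was hybridised to single-colour Illumina bead arrays. The deposited values are on a log scale, taken as log2 from their range, and have array medians of 8.48 to 8.5, near the lowest values of the table. Neither the log base nor how background and normalization were handled is given in the sources used here. A floor compresses differences of dim probes, and precision is limited by how few arrays there are. Of 25697 probes, 23978 had 1 gene symbol, 0 had several and 1719 had none. The brightest probe by its mean over 17 arrays stood for each gene. Genes above the array's 40th percentile on a number of arrays no smaller than the smallest group were tested, which left 10842 genes on the 9 immobilization arrays, 10398 on the 8 transfection arrays and 11432 on all 17. Differences were fitted in R 4.3.3 by limma 3.58.1 (lmFit, eBayes), with Benjamini-Hochberg adjustment and a threshold of 0.05, and the fit was tested on simulated data. Tables were made with Python 3.11.15, pandas 2.3.3 and scipy 1.17.1.

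The members, gene lists and tests were chosen with earlier results of these data known. Any member could be named; those given array by array were the 6 largest called differences of a comparison, the smallest p in each complex and among assembly factors, the isoform pairs (with Cox4i1 and Ndufa4) and the c ring genes, and where no member was called the 3 leading rises and falls. Of the related lists at most 6 called genes a comparison were taken, smallest p first, while Cox19, Ppargc1a, Nrf1, Mterf1a, Gabpb1 and, with the p53 plasmid, Perm1 were named after their values were seen, as were Ndufs4, the slow fibre genes and the members on arrays numbered 3. Other members stand as examples of their complex. The isoform pairs were listed with the members, and their permutation test was added after the data were seen.

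Nothing says that replicates of a group come from separate animals, so p-values measure the spread between these samples, which may be technical. Replicate numbers in the titles paired the immobile p53 mKO and immobile control arrays, with correlations of deviations of 0.621, 0.484 and 0.813, and no other groups, where at least 1 pair was under 0.1. Alternatives were the replicate block, 1 fit of all arrays, other filters, quantile normalization, median centring, the mean of a gene's probes, a trend in eBayes, array weights, and leaving out each array.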

Additional observations from a re-analysis of the deposited data

Results flagged for a closer look

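Among the 38 members given array by array, each group of 4 arrays was checked for an array far from the other 3, by the gap to the nearest array over the group's range. Of 76 groups 8 stood out, and chance flags about 1 in 20. On p53 plasmid array 2, Cox8b was low at 13.72 with the others at 14.39 to 14.43, Uqcrb at 13.11 with the others at 13.40 to 13.43, and Cox4i1 at 14.59 with the others at 14.69 to 14.70. Without that array 67 members were called lower and 2 higher. On control plasmid array 4, Ndufb7 was low at 10.78 with the others at 11.00 to 11.03, and Ndufs8 at 13.09 with the others at 13.25 to 13.27. On control plasmid array 1, Ndufa4 was high at 14.86 with the others at 14.78, and Atp5g3 at 15.16 with the others at 15.10 to 15.11. Cox4i2 was at 8.37 on p53 plasmid array 1 and at 8.36 on the others, a gap near the floor of the table.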

How the results depend on the processing

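The number of members called stayed within 1.5 times its main value in most settings. The exceptions other than left-out arrays were the array weights, which gave 45 under immobilization, against 28, and 38 for p53 mKO against mobile control limbs, against 22. Leaving out 1 array at a time gave 16 to 31 under immobilization, 0 to 0 for p53 mKO against immobile control limbs, 11 to 27 for p53 mKO against mobile control limbs, 69 to 71 with the p53 plasmid, against 72, 42 to 56 for control plasmid against mobile control muscle, and 13 to 27 for the difference of effects. With the replicate block the counts were 32, 0, 26, 70, 51 and 20 in this order. With the block on the 6 immobile arrays alone, a setting chosen after seeing the data that pairs p53 mKO with immobile control limbs, the count was also 0. Without both immobile arrays numbered 3, also chosen after seeing the data, it was 41, 0 and 30 for the first 3 comparisons. No named difference changed sign where it was called. Of the named called members, 8 of 12 under immobilization, 5 of 10 for p53 mKO against mobile control limbs, 14 of 15 with the p53 plasmid, 13 of 15 for the baselines and 8 of 11 for the difference of effects kept their call in every setting that could test them. The one lost with the p53 plasmid was Cox4i1 (highest adjusted p = 0.0964 by limma), and the cause was not tested. Signal near the floor limits Ndufs1, Uqcrq, Uqcrfs1, Atp5k, Ndufab1 and Ndufaf3, and signal near the top may limit Atp5b and Atp5g3, which was not tested.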
